A study of Rattus norvegicus with 32 samples.

Results

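Transcripts of 8 genes of heme and iron-sulfur cluster metabolism were followed in rat hippocampus: Alas1, Urod, Cpox and Fech of heme synthesis, Hmox1 and Hmox2 of heme breakdown, and Nfs1 and Iscu of iron-sulfur cluster assembly. The genes were taken by their symbols. They account for 9 of the 32883 gene models in the count tables, because Nfs1 is listed under 2 models. RNA came from the hippocampus of 32 Sprague-Dawley rats at postnatal day 65 (P65), 16 males and 16 females. All males were sequenced in batch I and all females in batch II, and the effects of sex and of batch cannot be told apart here. Each sex held 4 rats in each of 4 diet groups, which the labels name iron sufficient (IS), iron sufficient with choline supplementation (ISch), iron deficient (ID) and iron deficient with choline supplementation (IDch). In the males, which the study's methods describe, deficiency came from a low-iron diet of the dams from early pregnancy into the first postnatal week, after which iron was restored, and choline was added to the dams' diet later in gestation. The ID and IDch rats were therefore formerly iron deficient when the tissue was taken, and the study calls them FID and FIDch. The study's methods give 1 male per litter in each experiment, but the RNA data were reprocessed from an earlier study. Whether the males sequenced here were 1 per litter is not stated. Litters of the females are not stated either, and p-values measure the spread between these rats.

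Heme is built from glycine and succinyl-CoA in a chain of enzymes that begins and ends in the mitochondrion. Ferrochelatase, the product of Fech, inserts the iron as the last step. Heme oxygenases open the ring again and release the iron. Iron-sulfur clusters, which the respiratory chain and many other enzymes carry, are put together on the scaffold protein ISCU with sulfur taken from cysteine by NFS1. Both pathways take their iron from the mitochondrial supply, which is why these genes are of interest after early iron deficiency.

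Male libraries held 3515806 to 9517503 counts on genes and female libraries 18439999 to 26616318. Levels are given in CPM, each library's counts scaled to a common library size with TMM normalization over the 16 libraries of a sex, and are not corrected for transcript length. Markers of hippocampal neurons, astrocytes and oligodendrocytes were present in all libraries, with mean levels of 5 of 6 neuronal markers above 1 CPM in males and of 6 of 6 in females. The summed level of 6 choroid plexus markers was 2.63 to 383 CPM among males and 2.79 to 17.3 CPM among females, with Otx2 at 0. The high male values were in the ID group, 5.76 to 383 CPM, and the other male groups reached at most 6.06 CPM. Members were counted at an absolute log2 fold change over 0.2 with an unadjusted p under 0.05. In male ID against IS and IDch against ID, 0 members reached this with all rats. With each male ID rat left out in turn, 0 reached it as well. As the count was 0 from the start, these omissions cannot show a part of choroid plexus. Its part in the values of the members and of other genes was not tested. The summed level of 5 blood markers was 70.6 to 192.5 CPM in males and 85.9 to 307.8 CPM in females. These are bulk samples, in which fewer cells of a type and less RNA per cell cannot be told apart.

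A promoter window was at hand for 5 of the 8 genes (Alas1, Fech, Hmox2, Iscu and Urod) in RefSeq's GRCr8 annotation, each spanning 250 bases before to 50 bases after the start site. Alas1 and Iscu are shown because their windows share the motif of nuclear respiratory factor 1 (GCGCA, any base, then GCGC). Nuclear respiratory factor 1 is known for driving nuclear genes of mitochondrial function. The motif was searched on both strands and stands in capitals. Each stretch is part of the window and is written 5′ to 3′ on the gene's strand.
Alas1, chr8:115768643-115768718, minus strand: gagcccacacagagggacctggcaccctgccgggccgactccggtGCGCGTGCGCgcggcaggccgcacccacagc
Iscu, chr12:48518697-48518785, minus strand: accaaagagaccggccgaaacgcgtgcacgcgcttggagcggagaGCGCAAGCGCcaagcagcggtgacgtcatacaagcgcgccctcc
The motif lies at -31 to -22 from the start site in Alas1 and at -44 to -35 in Iscu, and Alas1 holds a second match at -2 to 8. It occurs in 4.25% of all 33469 windows. The CACGTG E-box occurs in the Urod window and in 6.42% of all windows. The TGACNNNGC pattern of NRF2 and BACH1 with small MAF partners occurs in an Hmox2 window and in 12.1% of all windows. A match is a match of letters only, and no windows were at hand for Hmox1, Cpox and Nfs1. Around the group means, Alas1 and Iscu gave a Pearson correlation of -0.14 over the 16 male libraries and 0.44 over the 16 female libraries, which describes rats that also share their library depth and batch.

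Of the 8 genes, 7 passed the filter on low counts in every comparison, and Nfs1, described further on, passed it in some. The fold changes of the 7 between diets were small. The study's criterion for a differential gene was an absolute log2 fold change over 0.2 with an unadjusted p under 0.05. In edgeR's quasi-likelihood test, 0 of the 7 genes met it in any of 10 comparisons between diet groups of a sex. Of all genes tested, the criterion was met in males by 4.62% for ID against IS, 6.12% for IDch against IS, 8.06% for ISch against IS, 13% for IDch against ID and 8.12% for IDch against ISch. In females the shares in the same order were 6.47%, 8.98%, 10.3%, 12.7% and 4.57%. At an unadjusted p under 0.05 alone, 1 gene passed in 1 comparison, which was Urod in female IDch against ID. In that comparison 2648 of all 14680 genes tested passed as well. With an adjusted p under 0.05, 0 of the 7 passed, and DESeq2 called 0 of the 7 in each comparison. Of all genes, the adjusted p passed in males in 0%, 0.131%, 0.208%, 1.28% and 0.043% over the same 5 comparisons and in females in 0.191%, 0.907%, 2.54%, 2.28% and 0.00689%. The same held for the interaction of iron and choline, where 0 genes met the criterion against 14.4% of all genes in males and 7.33% in females, and where the adjusted p passed for 0.00699% and 0.00668% of all genes.

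**Figure D1:**
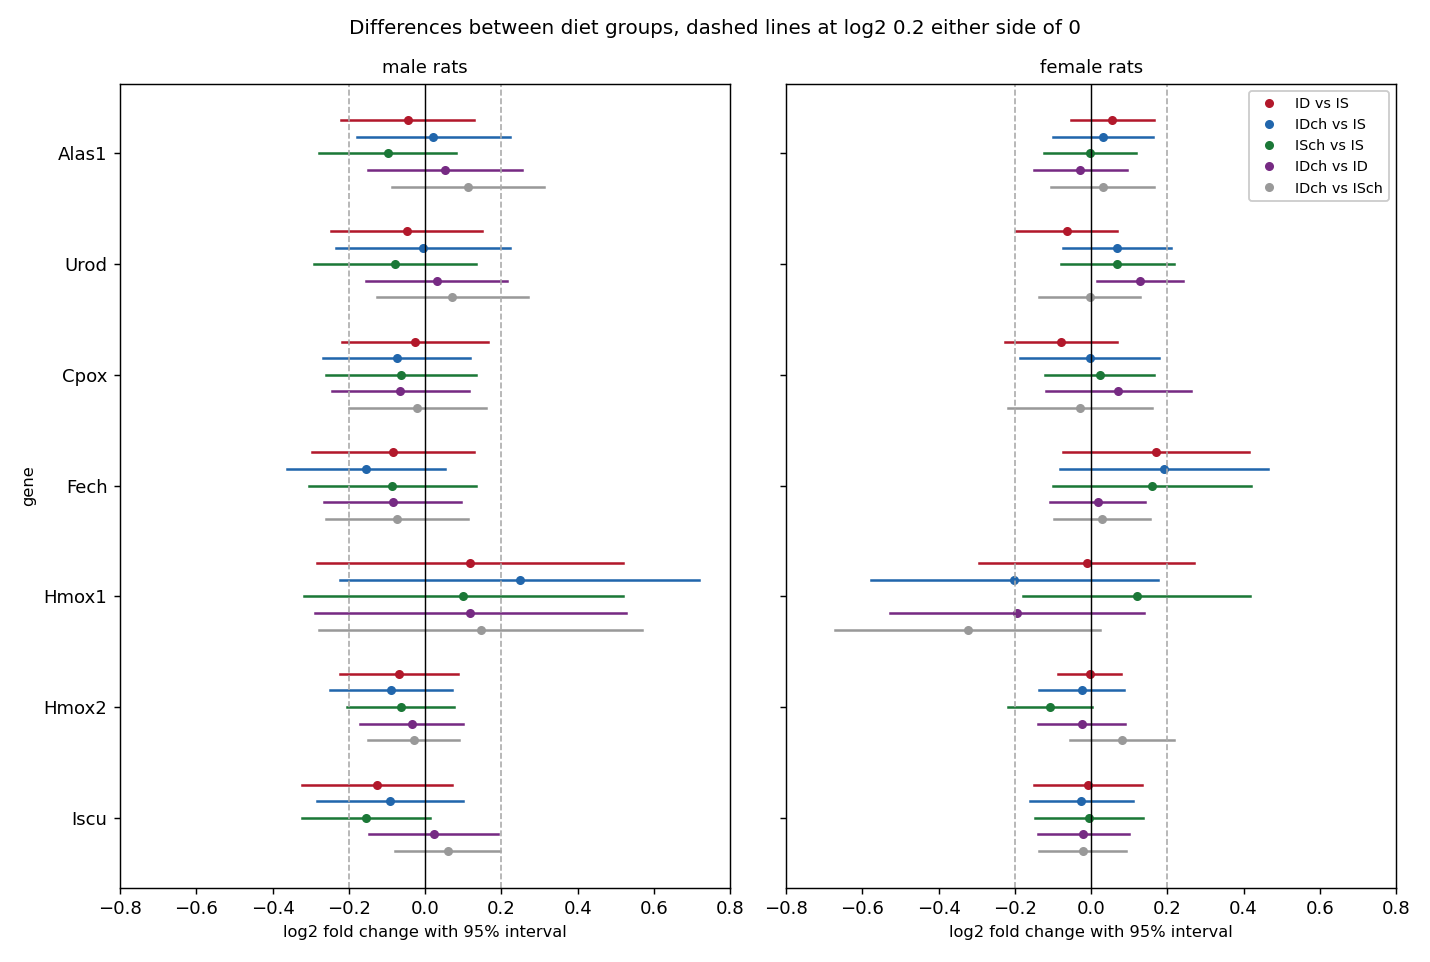
Log2 fold changes of 7 genes between diet groups (x axis, points) with 95% intervals (lines), for each gene on the y axis, in male rats (left) and female rats (right), with dashed lines at 0.2 either side of 0. Apart from Urod in female IDch against ID, each interval includes 0, and Hmox1 has the widest intervals.

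**Figure D2:**
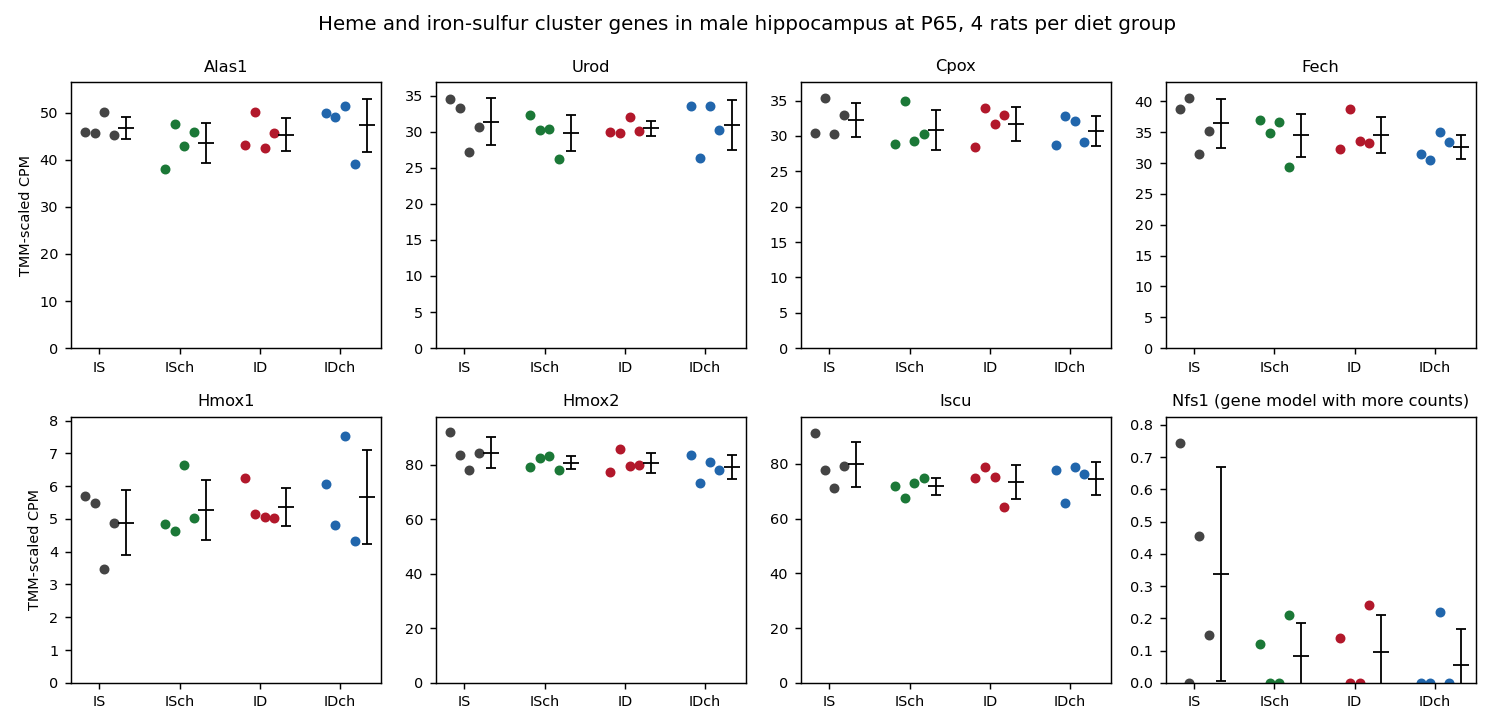
Levels in TMM-scaled CPM (y axis, from 0) of the 8 genes in the 16 male rats by diet group (x axis), each point 1 rat, with mean and SD as black bars. The groups overlap for each of the genes, and Nfs1 lies under 1 CPM.

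**Figure D3:**
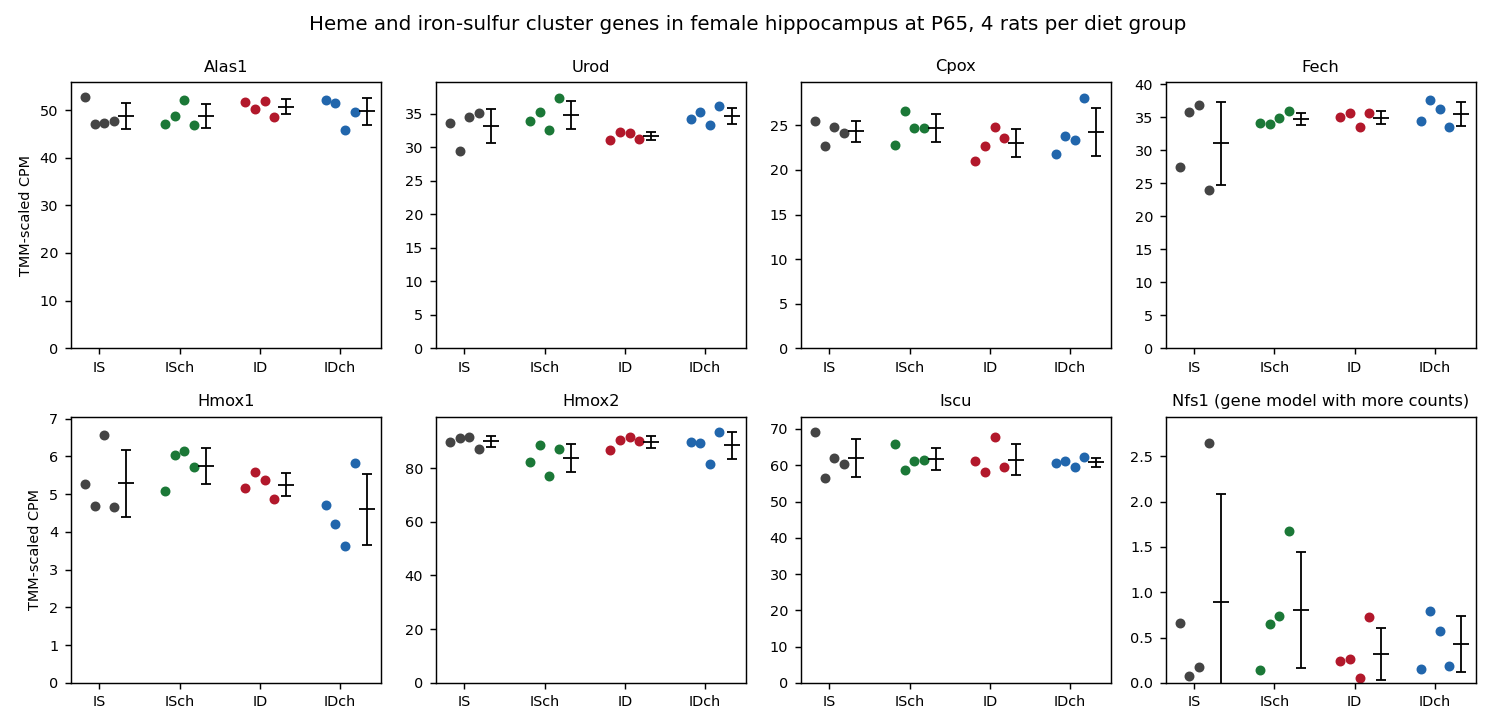
The same plot for the 16 female rats, where SD bars of Nfs1 are clipped at 0. Fech splits within the IS group, Urod is lower in ID than in IDch, and Nfs1 is highest in IS replicate 4.

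Alas1 encodes the housekeeping 5-aminolevulinate synthase, the rate-limiting entry to heme synthesis outside erythroid cells. In males its mean was 46.7 ± 2.26 CPM in IS, 43.6 ± 4.24 in ISch, 45.4 ± 3.48 in ID and 47.4 ± 5.64 in IDch (SD, n = 4). In females the means were 48.8 ± 2.71, 48.8 ± 2.46, 50.7 ± 1.59 and 49.8 ± 2.85 CPM (SD, n = 4). Individual rats ranged from 38.0 to 51.4 CPM in males and from 45.9 to 52.8 CPM in females, and no pair of groups separated. Female fold changes lay between -0.03 and 0.06 on the log2 scale, and the widest 95% interval bounds among them were -0.15 and 0.16, that is 0.90 to 1.12-fold. Male intervals reached from -0.28 to 0.31. In RefSeq's annotation Alas1 overlaps an Rpl29 gene model. Where exons coincide, its reads cannot be told from those of that model, because the library kit does not keep strand. Hmox1 and Hmox2 also overlap other gene models there. Overlaps given here are those of GRCr8, while the counts were made on Rnor_6.0, so which counts they touch was not tested.

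Urod encodes uroporphyrinogen decarboxylase, which acts midway in the chain. In female ID rats it stood at 31.2, 32.3, 32.2 and 31.2 CPM. In female IDch rats it stood at 34.3, 35.2, 33.3 and 36.1 CPM. All 4 IDch rats were above all 4 ID rats, and this was the only pair of groups without overlap among the 7 genes and 10 comparisons. In that comparison 11.9% of all genes had groups that did not overlap. Over the other 9 comparisons this share was 3.52%, 5.32%, 6.15%, 10.8% and 7.67% in males and 6.49%, 7.8%, 10.1% and 5.08% in females, in the order given above. The log2 fold change of Urod was 0.13 with SE 0.05, below the criterion's 0.2, and the adjusted p was 0.219 in the edgeR test. Female IS rats ranged from 29.4 to 35.1 CPM and ISch rats from 32.7 to 37.4 CPM, and both overlapped the ID and IDch ranges. Among males, Urod means were 31.4 ± 3.28 CPM in IS, 29.8 ± 2.54 in ISch, 30.5 ± 1.02 in ID and 30.9 ± 3.45 in IDch (SD, n = 4). Male IDch exceeded male ID by a log2 of 0.03, with a 95% interval of -0.15 to 0.22, which overlaps that of the females (0.02 to 0.24). The female iron by choline interaction for Urod was 0.06 (SE 0.08, adjusted p = 0.887 in the edgeR test).

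Cpox encodes coproporphyrinogen oxidase, which acts after Urod in the mitochondrial intermembrane space. Its male means were 32.3 ± 2.44 CPM in IS, 30.9 ± 2.78 in ISch, 31.7 ± 2.40 in ID and 30.7 ± 2.08 in IDch (SD, n = 4). Its female means were 24.3 ± 1.20, 24.7 ± 1.55, 23.0 ± 1.61 and 24.3 ± 2.67 CPM (SD, n = 4). The highest female value, 28.1 CPM, and one of the lower ones, 21.8 CPM, were both from IDch rats. Log2 fold changes lay between -0.08 and 0.07 in females and between -0.07 and -0.02 in males, with bounds no wider than -0.27 and 0.26.

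Fech, the ferrochelatase gene, had an uneven spread in females. The female IS rats stood at 27.5, 35.7, 36.9 and 23.9 CPM, which were 544, 925, 838 and 570 counts. Replicates 1 and 4 were thus lower than every other female rat, while the 12 rats of the other groups lay between 33.5 and 37.7 CPM. Means were 31.0 ± 6.30 CPM in IS, 34.7 ± 0.95 in ISch, 34.9 ± 0.98 in ID and 35.4 ± 1.85 in IDch (SD, n = 4). The residual SD over the female groups was 0.16 on the log2 scale, against 0.05 from counting alone, and was at the 86.8th percentile of 2870 genes within 1.5 times its level. In males that percentile was 51.8.

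Fech against female IS gave log2 fold changes of 0.17 in ID (SE 0.11), 0.19 in IDch (SE 0.12) and 0.16 in ISch (SE 0.12), comparisons that share the 4 IS rats. The adjusted p of the edgeR test was 0.62, 0.548 and 0.556. Each of the 3 met the criterion when IS replicate 3 was left out, at 0.26, 0.28 and 0.26, with adjusted p from 0.329 to 0.35. Between the other groups Fech differed by 0.02 (IDch against ID) and 0.03 (IDch against ISch).

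The male rats showed the other sign for Fech, with means of 36.5 ± 3.98 CPM in IS, 34.5 ± 3.52 in ISch, 34.5 ± 2.90 in ID and 32.6 ± 2.02 in IDch (SD, n = 4). The male IS rats stood at 38.7, 40.5, 31.5 and 35.2 CPM. The male IDch rats stood at 31.4, 30.5, 35.0 and 33.4 CPM, and the groups overlapped. Male IDch against IS gave -0.16 (SE 0.10, adjusted p = 0.717 in the edgeR test). The male effect minus the female effect of IDch against IS was -0.35 (SE 0.16, adjusted p = 0.349 in the edgeR test). This was the only test among all 15 in which a member met the criterion, and 12.9% of all genes met it there, with an adjusted p under 0.05 for 0.362%. It held in 7 of 20 alternative analyses and was lost with DESeq2 and with RLE size factors, both at -0.35, and without each of 11 of the 16 libraries, among them female IS replicates 1 and 4, at -0.30 and -0.25. For the effects of ID and ISch against IS, 0 members met the criterion, against 7.64% and 14.2% of all genes (0.0396% and 1.28% by adjusted p), and Fech differed between the sexes by -0.24 in both (adjusted p = 0.695 and 0.512 in edgeR).

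Hmox1, the inducible heme oxygenase, had low counts, 17 to 68 in males and 82 to 149 in females. Male means were 4.89 ± 0.999 CPM in IS, 5.28 ± 0.92 in ISch, 5.37 ± 0.58 in ID and 5.68 ± 1.43 in IDch (SD, n = 4). All 5 male fold changes were positive, at 0.10 to 0.25 on the log2 scale, with bounds from -0.32 to 0.72. The residual SD among males was 0.25 on the log2 scale, with 0.5 CPM added to each level. Counting alone gives 0.24 at this depth with nothing added, so the scales differ slightly. The half-width of the male 95% intervals was 0.40 to 0.47 on the log2 scale, and smaller differences would not have excluded 0.

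Female Hmox1 means were 5.29 ± 0.89 CPM in IS, 5.75 ± 0.48 in ISch, 5.25 ± 0.31 in ID and 4.60 ± 0.93 in IDch (SD, n = 4). The IDch rats stood at 4.71, 4.21, 3.64 and 5.84 CPM and the ISch rats at 5.09, 6.04, 6.15 and 5.73 CPM. Of the IDch rats, 3 were below all ISch rats, and replicate 4 lay among them. The log2 fold change of IDch against ISch was -0.32 (SE 0.16, adjusted p = 0.633 in edgeR). Without IDch replicate 4 it was -0.46 and met the criterion (adjusted p = 0.283), and with the 4 female groups in one fit it met the criterion at -0.32 (adjusted p = 0.408). Without that rat the comparison with ID was also at the criterion (-0.32, adjusted p = 0.217 in edgeR). The summed level of 8 microglia and macrophage markers was 151.8 to 156.6 CPM in female IDch and 146 to 171.7 in ISch. It was 164.3 to 182.5 CPM in female ID and 170.9 to 176.9 in IS. Csf1r alone had a female mean of 104.1 CPM and made up most of this sum. The part of these markers in the Hmox1 levels was not tested.

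Hmox2, the constitutive heme oxygenase and the main form of the brain, had the smallest residual SD of the 7 genes, 0.07 on the log2 scale in each sex. Male means were 84.5 ± 5.76 CPM in IS, 80.9 ± 2.38 in ISch, 80.8 ± 3.58 in ID and 79.1 ± 4.40 in IDch (SD, n = 4). Female means were 90.0 ± 1.94, 83.7 ± 5.25, 89.8 ± 2.12 and 88.4 ± 5.04 CPM (SD, n = 4). That SD stood at the 6.94th percentile of 14314 genes in males and the 11.9th of 14975 in females, and among genes within 1.5 times its level at the 14.7th and 31.7th. The difference nearest to the threshold was female ISch against IS, where the ISch rats stood at 82.2, 88.5, 76.9 and 87.0 CPM and the IS rats at 89.8, 91.3, 91.5 and 87.3 CPM. The groups overlapped, and the log2 fold change was -0.11 (SE 0.05, adjusted p = 0.321 in edgeR). A female change beyond 0.86 to 1.16-fold lay outside every 95% interval.

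Nfs1, the cysteine desulfurase gene, was hardly counted. The first of its models held 0 to 6 counts in male libraries, with 8 of 16 at 0, and the second 0 to 1 with 11 of 16 at 0. A count of 0 allows up to 3 counts, which covers counting error only. In females the first model held 1 to 63 counts and the second 0 to 3. The female IS rats had 13, 2, 4 and 63 counts and the ISch rats 3, 12, 14 and 34. The ID rats had 6, 5, 1 and 18 counts and the IDch rats 4, 21, 13 and 4. Single rats therefore differed by more than the groups, and the level of IS replicate 4, 2.65 CPM, was above all others. The model passed the filter on low counts in 3 of the 5 female comparisons, with log2 fold changes of -1.03, -0.14 and -0.89 and standard errors of 0.66 to 0.89, and did not meet the criterion in them. Nfs1 lies 63 bases from Romo1 in RefSeq's annotation. How the counting treated reads matching several genes is not given in the sources used here, so these counts are uncertain as a level of Nfs1.

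Iscu encodes the scaffold on which clusters are assembled. Male means were 79.9 ± 8.27 CPM in IS, 71.8 ± 3.02 in ISch, 73.4 ± 6.30 in ID and 74.5 ± 6.07 in IDch (SD, n = 4). The male IS rats stood at 91.1, 77.6, 71.3 and 79.3 CPM, with replicate 1 above all other males. The male ISch rats stood at 72.0, 67.6, 72.9 and 74.8 CPM and overlapped the IS rats. Their log2 fold change was -0.15 (SE 0.08, adjusted p = 0.509 in edgeR). Female means were 62.0 ± 5.30, 61.8 ± 3.08, 61.6 ± 4.26 and 60.8 ± 1.19 CPM (SD, n = 4), and female fold changes stayed between -0.03 and -0.01 with bounds of -0.16 and 0.14. Female intervals for Iscu thus covered 0.89 to 1.10-fold.

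The members did not vary as a single unit from rat to rat. Around the group means, the 21 pairs among the 7 tested genes gave correlations of -0.32 to 0.72 (median 0.42) over 16 male libraries and -0.37 to 0.56 (median 0.16) over 16 female libraries, as a description. Urod and Hmox2 had 0.72 in males and 0.45 in females. Fech and Urod had 0.71 in males and -0.37 in females. Among 13860 genes, those most like a member in both sexes, by the smaller of its correlations in males and females, were Slc25a4 for Hmox2 (0.93 and 0.86), Papss1 for Hmox1 (0.82 and 0.85) and Hist3h2ba for Iscu (0.81 and 0.75). For the others they were Sybu for Alas1 (0.72 and 0.75), Tpd52 for Fech (0.70 and 0.78), Kcnmb4 for Urod (0.69 and 0.71) and Mylip for Cpox (0.71 and 0.66). The next in order were Rack1 and Rnf146 for Hmox2, Glud1 and Gstm1 for Hmox1, Mrpl4 and Mrps18b for Iscu, Yae1 and Prune1 for Alas1, Idh3a and Ntsr1 for Fech, Ctbp1 and Apbb1 for Urod, and Cstf2t and Agfg2 for Cpox.

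Other genes of the same pathways were compared in 6 lists, in which the members above are included. In the heme synthesis list of 14 genes, 0 met the criterion for ID against IS in either sex, where 4.62% of all genes in males and 6.47% in females met it. In females 2 of 14 met it for ISch against IS and for IDch against IS, both lower, namely Uros and Abcb6, where 10.3% and 8.98% of all genes met it, and 1 of 14 for IDch against ID, which was Uros, where 12.7% of all genes did. In males 1 of 13 met it for IDch against ISch (Uros, -0.28), where 8.12% of all genes did, and that call held in 8 of 14 alternative analyses. List medians were -0.06 to 0.03 over the 10 comparisons, and the medians of all genes -0.01 to 0.01.

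Uros encodes uroporphyrinogen III synthase, which makes the substrate of Urod. The female IS rats stood at 11.4, 10.6, 10.5 and 10.8 CPM. The female ISch rats stood at 9.01, 6.85, 6.89 and 7.70 CPM, all below the IS rats. Uros fell by 0.51 on the log2 scale in ISch against IS (SE 0.10, adjusted p = 0.0278 in edgeR). The adjusted p stayed under 0.05 in 4 of 13 alternative analyses and ranged from 0.00266 to 0.138 over them. In IDch the female rats stood at 8.05, 8.08, 4.26 and 4.63 CPM, also below all IS rats and all ID rats (8.58 to 10.2 CPM), with log2 differences of -0.78 against IS (adjusted p = 0.126 in edgeR) and -0.60 against ID (adjusted p = 0.149). The male rats ranged from 9.06 to 12.7 CPM in IS, 11.1 to 13.9 in ISch, 9.48 to 10.9 in ID and 8.58 to 11.2 in IDch. The male effect of ISch minus the female effect was 0.65 (SE 0.17, adjusted p = 0.0601 in edgeR). Uros overlaps Bccip in RefSeq's annotation, and reads of the overlap cannot be told apart. Abcb6, a transporter linked to porphyrins, was lower in female ISch than in IS by -0.41 (adjusted p = 0.0956 in edgeR) with overlapping groups.

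In the list for heme breakdown, transport and binding, 11 of 12 genes were tested. Male IDch against IS and female IDch against ID had 2 of 11 at the criterion, where 6.12% and 12.7% of all genes met it. The other comparisons between diet groups of a sex had 0 or 1 of 11, where 4.57% to 13% of all genes did. Blvra encodes biliverdin reductase A, which turns the biliverdin made by heme oxygenases into bilirubin. The female IS rats stood at 18.6, 19.3, 18.8 and 17.5 CPM, and the ISch rats at 28.0, 23.1, 24.2 and 30.7 CPM, all above them. Blvra rose by 0.51 on the log2 scale (SE 0.09, adjusted p = 0.0184 in edgeR). The adjusted p stayed under 0.05 in 9 of 13 alternative analyses and ranged from 6.05e-05 to 0.0902. The female IDch rats, at 29.3, 27.3, 20.1 and 32.6 CPM, were also above all IS rats, with a log2 fold change of 0.56 (adjusted p = 0.0814 in edgeR). The male IDch rats stood at 19.4, 17.8, 17.2 and 14.9 CPM, against 21.4, 18.9, 22.3 and 22.8 CPM in male IS rats, with overlap and a log2 fold change of -0.29 at the criterion (adjusted p = 0.528 in edgeR). The male effect minus the female effect of IDch against IS was -0.86 (SE 0.18, adjusted p = 0.0398 in edgeR). In 6 of 20 alternative analyses its adjusted p was under 0.05, and it ranged from 0.00216 to 0.111. Male ISch rats stood at 23.6, 25.3, 22.5 and 27.5 CPM. Against male IS rats, which they overlapped, their log2 fold change was 0.22, also at the criterion and of the same sign as in females (adjusted p = 0.472 in edgeR), and the criterion was met in 4 of 14 alternative analyses. They were all above the male IDch rats (log2 -0.52 for IDch against ISch, adjusted p = 0.11 in edgeR). A non-coding gene model overlaps Blvra in RefSeq's annotation.

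**Figure D4:**
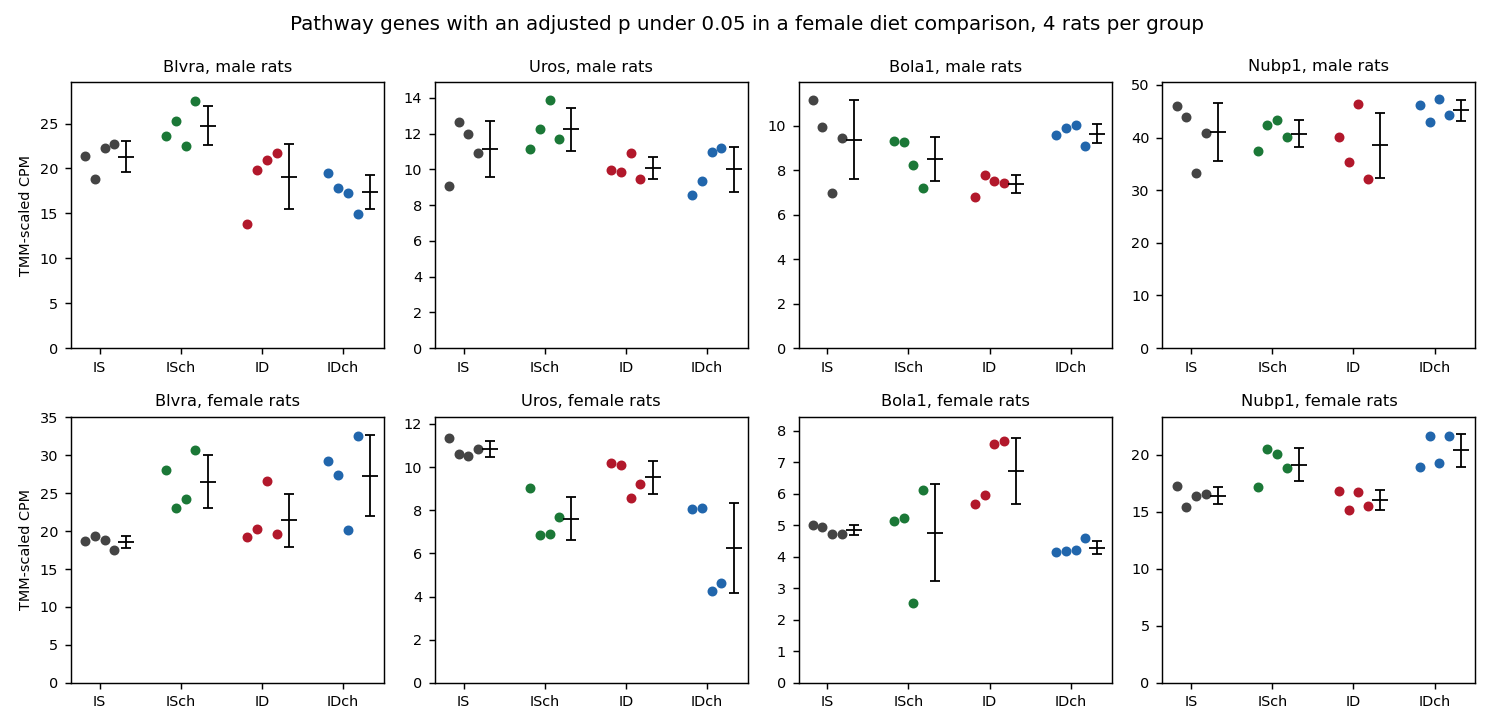
Levels in TMM-scaled CPM (y axis, from 0) of Blvra, Uros, Bola1 and Nubp1 by diet group (x axis) in male rats (top) and female rats (bottom), each point 1 rat, with mean and SD as black bars. Female ISch lies above IS for Blvra and below it for Uros, and female IDch lies below ID for Bola1 and above it for Nubp1.

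Of the other genes of that list, Pgrmc1, a heme-binding membrane protein gene, met the criterion in male IDch against IS and against ID, at -0.24 in both, with 168.7 to 201.8 CPM in IDch, 208.4 to 235.4 in IS and 208.7 to 233.8 in ID. Without male IDch replicate 2 neither comparison of Pgrmc1 met it. Flvcr2, of a family of heme and choline transporters, met it in female IDch against ID (-0.54, adjusted p = 0.183 in edgeR), but not without female ID replicate 3 or 4.

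The list for mitochondrial iron-sulfur cluster assembly held 23 gene models, of which 21 or 22 were tested. Most comparisons between diet groups of a sex had 0 or 1 of them at the criterion, where 4.57% to 12.7% of all genes met it. Male ID against IS had 3 of 21, where 4.62% did, and male IDch against ID had 5 of 21, where 13% did. The male interaction had 3 of 21, where 14.4% did, and the male minus female effect of ID against IS 3 of 21, where 7.64% did. Bola1, a BolA family protein of mitochondrial cluster maturation, stood at 5.68, 5.96, 7.58 and 7.66 CPM in female ID rats. In female IDch rats it stood at 4.16, 4.17, 4.21 and 4.58 CPM, all lower. It fell by 0.65 on the log2 scale (SE 0.13, adjusted p = 0.0312 in edgeR, under 0.05 in 5 of 13 alternative analyses, range 0.0018 to 0.0989). Female ID rats were also all above the IS rats (4.71 to 5.0 CPM), at 0.47 (adjusted p = 0.158). Male rats gave the other sign in both: -0.35 for ID against IS (adjusted p = 0.786) and 0.37 for IDch against ID (adjusted p = 0.134), the latter without overlap. The male effect minus the female effect of ID against IS was -0.81 for Bola1 (SE 0.20, adjusted p = 0.265 in edgeR). Fdx2, the ferredoxin that gives electrons to cluster assembly, met the criterion in males at -0.28 for ID against IS and -0.29 for ISch against IS, comparisons that share the IS rats (adjusted p = 0.786 and 0.395 in edgeR). Male IS replicate 1 stood at 45.8 CPM against 34.1 to 35.9 CPM in the other 3, and without it the values were -0.16 and -0.17 and the criterion was not met. The first call was also lost without ID replicate 4, and the latter without ISch replicates 1 and 2 together.

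All 11 genes of the list for cytosolic iron-sulfur cluster assembly were tested. In females 2 of 11 met the criterion for IDch against ID and for IDch against IS, where 12.7% and 8.98% of all genes met it. Both were higher, namely Nubp1 and Nubp2, whose products form the scaffold of the cytosolic machinery. Nubp1 was also higher at the criterion in female ISch against IS, 1 of 11, where 10.3% of all genes met it (log2 0.22, adjusted p = 0.19 in edgeR). Nubp1 stood at 16.8, 15.1, 16.7 and 15.5 CPM in female ID rats. In female IDch rats it stood at 18.9, 21.7, 19.3 and 21.6 CPM, all higher. It rose by 0.34 on the log2 scale (SE 0.08, adjusted p = 0.0436 in edgeR, under 0.05 in 5 of 13 alternative analyses, range 0.00691 to 0.127). Male Nubp1 differed by 0.23 in the same comparison, with overlapping groups and an adjusted p of 0.265 in edgeR. Nubp1 overlaps Tvp23a in RefSeq's annotation. Nubp2 differed by 0.25 in female IDch against ID (adjusted p = 0.113). In males, 3 of 11 genes met the criterion for IDch against ID, all higher, where 13% of all genes did, and 3 of 11 for ISch against IS, all lower, where 8.06% did. Among them Ciao3, of the cytosolic assembly complex, stood at 39.0 to 42.7 CPM in male IDch and 33.9 to 35.4 CPM in male ID (log2 0.23, adjusted p = 0.114 in edgeR). Male IDch against IS had 1 of 11 at the criterion, male IDch against ISch 2 of 11 and the male interaction 3 of 11. Of all genes, 6.12%, 8.12% and 14.4% met it there.

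The control of Hmox1 runs through the activator NRF2, the product of Nfe2l2, and the heme-sensing repressor BACH1, and 12 genes of this axis were listed. Most comparisons between diet groups of a sex had 0 or 1 gene at the criterion, where 4.62% to 13% of all genes met it. Female IDch against ISch had 2 of 11, both lower, where 4.57% did. The interaction had 3 of 12 in females, all lower, and 2 of 11 in males, 1 of each sign, where 7.33% and 14.4% did. The male minus female effect of ID against IS had 2 of 12, where 7.64% did. Female IDch against ID had 4 of 12, all lower, where 12.7% of all genes met it. Among these, Bach1 differed by -0.49 (adjusted p = 0.109 in edgeR), Slc7a11 by -0.22 (adjusted p = 0.0853) and Txnrd1 by -0.21 (adjusted p = 0.132). Female Bach1 was 4.84 to 5.70 CPM in ID and 2.92 to 4.29 CPM in IDch, without overlap. Nfe2l2 was 19.2 to 20.9 CPM in female IDch and 21.2 to 25.3 CPM in female IS (log2 -0.23, adjusted p = 0.194). Male Bach1 was 4.60 to 6.16 CPM in ISch and 2.98 to 3.94 CPM in IS (log2 0.56, adjusted p = 0.367 in edgeR). No gene of the axis passed an adjusted p of 0.05.

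Of 5 genes listed for the control of Alas1, Ppargc1a, the coactivator that raises Alas1 in fasted liver, and Lonp1, a mitochondrial protease, met the criterion. In males 1 of 5 met it for ID against IS and for IDch against IS, where 4.62% and 6.12% of all genes did. For male IDch against ID it was 2 of 5, where 13% did. In females 1 of 5 met it for IDch against IS and for IDch against ID, where 8.98% and 12.7% did. In females Ppargc1a was at -0.31 for IDch against ID (adjusted p = 0.106 in edgeR) and -0.27 for IDch against IS (adjusted p = 0.247), both without overlap. In males it was at -0.27 for IDch against ID (adjusted p = 0.226 in edgeR) and at 0.41 for ID against IS (adjusted p = 0.786). Of the male calls of Ppargc1a, the former held in 8 of 14 alternative analyses and the latter in 11 of 13. Lonp1 was at 0.22 in male IDch against IS (adjusted p = 0.393) and 0.24 in male IDch against ID (adjusted p = 0.106). Alas1 differed by -0.03 and 0.05 in female and male IDch against ID, with intervals that include 0.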

How the data were processed

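Hippocampal RNA of 32 rats was sequenced from libraries of a kit that does not mark strand. Per the labels and the study's methods, the authors trimmed reads with Trimmomatic, aligned them with HISAT2 to Rnor_6.0 and counted them on genes with featureCounts. The deposited values are raw counts per gene, without normalization. The treatment of reads matching several genes is not given in the sources used here.

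Groups were taken from the labels. Counts were fitted in R 4.3.3 with edgeR 4.0.16 (filterByExpr, TMM, glmQLFit and glmQLFTest) over all genes, each pair of groups apart. The interaction was fitted over the 16 libraries of a sex, and the difference between male and female effects over 16 libraries. P-values were adjusted after Benjamini and Hochberg, and 95% intervals came from the same fits. SDs and correlations used log2(CPM + 0.5), and the SD from counting alone used counts with nothing added. The fits were tested on simulated data. The alternatives were DESeq2 1.42.0, RLE size factors, all genes with at least 1 count, the 4 groups in one fit, a replicate block, 3 male libraries with differently formed names left out, and each library left out in turn.

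All 8 members are named. Of each list, up to 3 genes per comparison with the largest absolute log2 fold change at the criterion could be named, and the results of some genes under this rule are not reported here. The members, lists and naming rule were chosen with earlier results of these data known. Gene neighbours and promoter windows came from RefSeq's GRCr8.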

Additional observations from a re-analysis of the deposited data

Results flagged for a closer look

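Single rats stood apart from the other 3 of their group in 7 of 72 groups of 4, by Dixon's ratio at its 95% limit. Chance gives about 1 in 20 where counts are not near 0. They were Hmox1 in male ID replicate 1 (6.23 CPM), Urod in male ID replicate 3 (32.0 CPM), Alas1 in male IS replicate 3 (50.1 CPM) and in female IS replicate 1 (52.8 CPM), and Nfs1 in male IDch replicate 3 (0.221 CPM, first model), male ID replicate 2 (0.105 CPM, second model) and female ID replicate 1 (0.0406 CPM, second model). The Nfs1 values are 1 or 2 counts beside libraries at 0, where the ratio is always 1, so the rate of 1 in 20 does not apply to them. The flagged Urod value stood beside 29.8 to 30.1 CPM in the other male ID rats. The effect of IDch against IS on Fech differed between the sexes by -0.3529 on the log2 scale, male minus female, and its adjusted p in edgeR was 0.349.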

How the results depend on the processing

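The number of members at the criterion was the same as reported for all 15 comparisons with all genes of at least 1 count, for all 15 with the replicate block, and for all 4 without the differently named libraries. With the 4 groups in one fit it was 1 (Hmox1) in place of 0 for female IDch against ISch, and the other 9 counts were the same. With DESeq2 and with RLE size factors it was 0 in place of 1 for the male minus female effect of IDch against IS (Fech). Leaving out 1 library gave 0 to 1 members in 10 comparisons, namely the 5 female comparisons, male IDch against IS and against ISch, both interactions, and the male minus female effect of IDch against IS, and 0 in the other 5. Beyond the reported values, 19 of 1638 tests of the 7 genes in 234 alternative fits met the criterion, 0 had an adjusted p under 0.05, and the lowest was 0.189. Fech met the criterion in male IDch against IS without IS replicate 3 (-0.22), and Alas1 in male IDch against ISch without IDch replicate 4 (0.20). Nfs1 met it in female ID against IS without IS replicate 2 (-1.79). In the interactions, Iscu met it in males without IS replicate 3 (0.24), Alas1 in males without IDch replicate 4 (0.24), and Hmox1 in females without IS replicate 3 (-0.43) or IDch replicate 4 (-0.45). Among the other genes, the adjusted p of Blvra in female ISch against IS rose over 0.05 without IS replicate 2 or 4 or ISch replicate 4. That of Uros there held among these omissions only without ISch replicate 1, that of Bola1 in female IDch against ID only without ID replicate 1 or IDch replicate 4, and that of Nubp1 only without IDch replicate 4. That of the male minus female effect on Blvra held only without male IS replicate 2 or female IDch replicate 3 or 4. Replicate numbers are shared by the groups but do not pair the rats: same-numbered rats correlated by -0.31 to 0.33 in males and -0.26 to 0.30 in females, and 5 and 2 of 16 libraries were closest to their own number. With the replicate block, the adjusted p of Blvra, Uros, Bola1 and Nubp1 rose over 0.05 in the comparisons where it was under it. Low counts limit the precision for Hmox1 in males and for Nfs1 in both sexes.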
